A study of Homo sapiens with 12 samples.

Results

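The genes of G2 and mitosis are those whose products prepare a cell for division, separate its chromosomes and cut the cell apart. They were followed here as a list of 42 gene symbols, set by name, and earlier results of these data were known when it was chosen. Each gene was read through the probe set annotated with that symbol and no other, and, where a gene had several, through the brightest over all arrays. By this rule 41 of the 42 genes were measured, out of 18417 genes with a probe set of their own. The missing one is CENPA, the centromeric histone H3 variant, whose probe set (8040712) is annotated to CENPA and SLC35F6 together. BIRC5 had a second probe set (8018860), and neither of its probe sets was called in any comparison.

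The study asked how the steroid receptor coactivator SRC-1, the product of NCOA1, bears on the response to estradiol in U2OS-ERα cells. These are cells of a human osteosarcoma line with estrogen receptor α. All of them were grown without phenol red in medium with charcoal-stripped serum, which is low in steroids, and all had received 50 nM of a siRNA pool. The 4 groups were cells with SRC-1 siRNA and 3 h of 17β-estradiol, cells with SRC-1 siRNA and the ethanol vehicle, cells with non-targeting siRNA and 3 h of estradiol, and cells with non-targeting siRNA and vehicle. Each group had 3 arrays labelled as biological replicates, 12 in all, and the p-values measure the spread among these. The cells are a single line with transient knockdown, and the estradiol concentration is not given in the sources used here.

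The division programme runs in a fixed order. Cyclin A2 and the B cyclins switch on the kinase CDK1 once the CDC25 phosphatases have removed its inhibitory phosphates, and the polo and aurora kinases then build the spindle. The spindle checkpoint holds the chromosomes together until every kinetochore is attached, and the anaphase-promoting complex, an ubiquitin ligase switched on by CDC20, then marks securin and cyclin B for destruction. Transcripts of these genes build up in G2, through the MuvB complex with B-MYB and FOXM1. MuvB binds a promoter element called the CHR, and NF-Y binds CCAAT boxes close to it. Growth of estrogen-dependent breast cancer cells is driven by the hormone, and their G2 and mitosis genes are widely used as readouts of proliferation.

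Many promoters of these genes, though not all, hold the same short sequence elements, and 4 promoters are shown. They are those of the 2 called members with a promoter in the table and of 2 members of the core machinery, cyclin B1 and CDC20. The sequences are from RefSeq on GRCh38.p14, 5′ to 3′ on the strand of the gene, and end at the base before the gene's start. Capitals mark 2 motifs. The CHR was searched as TTTGAA, which on the opposite strand of the promoter reads TTCAAA. The box that NF-Y binds was searched as CCAAT, which on the opposite strand of the promoter reads ATTGG. The TOP2A promoter lies at chr17:40417897-40418146 on the minus strand, KIF23 at chr15:69414099-69414348, CCNB1 at chr5:69166900-69167149 and CDC20 at chr1:43358731-43358980, these 3 on the plus strand.
TOP2A: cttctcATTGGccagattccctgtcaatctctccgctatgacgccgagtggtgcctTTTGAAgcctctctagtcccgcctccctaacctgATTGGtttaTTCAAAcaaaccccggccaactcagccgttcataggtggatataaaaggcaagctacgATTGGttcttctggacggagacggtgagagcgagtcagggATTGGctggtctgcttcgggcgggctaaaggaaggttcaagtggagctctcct
KIF23: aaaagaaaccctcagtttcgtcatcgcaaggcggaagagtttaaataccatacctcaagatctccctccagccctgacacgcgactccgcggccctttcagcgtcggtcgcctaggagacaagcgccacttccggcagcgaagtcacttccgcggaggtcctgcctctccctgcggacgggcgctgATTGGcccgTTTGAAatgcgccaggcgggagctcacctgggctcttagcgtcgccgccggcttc
CCNB1: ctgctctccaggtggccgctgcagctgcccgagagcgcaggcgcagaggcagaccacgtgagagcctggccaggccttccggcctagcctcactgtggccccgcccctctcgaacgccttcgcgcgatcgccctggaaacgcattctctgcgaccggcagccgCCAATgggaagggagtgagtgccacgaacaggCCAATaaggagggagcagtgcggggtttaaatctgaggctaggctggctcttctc
CDC20: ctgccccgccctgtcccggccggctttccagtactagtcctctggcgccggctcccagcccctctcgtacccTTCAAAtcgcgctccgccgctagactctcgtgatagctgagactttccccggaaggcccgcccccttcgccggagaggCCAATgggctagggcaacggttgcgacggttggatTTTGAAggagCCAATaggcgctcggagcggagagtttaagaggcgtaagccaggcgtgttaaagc

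Of these 4 promoters, TOP2A held 2 CHR and 4 CCAAT matches, KIF23 1 of each, CCNB1 2 CCAAT matches and no CHR letters, and CDC20 2 of each. In KIF23 the CCAAT letters began at -64 and the CHR letters at -55, counted from the gene's start. Over the window from 250 bases before to 50 bases after the start, counted on both strands, promoters were found for 34 of the 41 genes; those of AURKA, BIRC5, BUB3, FOXM1, TPX2, TTK and UBE2C were not used. The CHR letters were in 23 of the 34 (67.6%), against 11.9% of 14239 genes on the array with a promoter in the table. CCAAT letters were in 25 (73.5%), against 36.3%, and both together in 18 (52.9%), against 4.86%. Letters of a full estrogen response element, GGTCANNNTGACC, were in 0 of the 34 windows and in 0.0211% of those of the array's genes. A CHR and a CCAAT match shared bases in 1 of the 34 promoters, that of MKI67, and a match of letters shows no binding.

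Before the members are described, the arrays were checked against their labels. NCOA1 (probe set 8040552) read 6.79, 6.88 and 6.92 on the log2 scale with SRC-1 siRNA and estradiol and 6.18, 5.62 and 5.78 with SRC-1 siRNA and vehicle. The values were 9.15, 9.06 and 9.02 with non-targeting siRNA and estradiol and 8.81, 8.72 and 8.83 with non-targeting siRNA and vehicle. Every array with SRC-1 siRNA thus lay below every array with non-targeting siRNA. NCOA1 was 7.60-fold lower with SRC-1 siRNA under vehicle and 4.64-fold lower under estradiol. Estradiol raised NCOA1 by 1.00 ± 0.11 log2 (SE) with SRC-1 siRNA (adjusted p = 0.00029 by limma) and by 0.29 with non-targeting siRNA (0.275). The difference of these effects, 0.71 log2, was not called (0.442). The depletion therefore read weaker under estradiol, which limits comparisons between the treatments. ESR1, the receptor gene, read through its brightest probe set (8122843), had means of 12.03, 12.11, 12.14 and 12.16 in these 4 groups, in the same order. There every array with SRC-1 siRNA and estradiol lay below every other array. Under estradiol the SRC-1 siRNA difference was -0.12 ± 0.04 log2 (SE, adjusted p = 0.163 by limma). A dimmer ESR1 probe set (8122840) had means of 5.53, 5.44, 5.52 and 5.54 in the same order. Neither ESR1 probe set was called in any comparison. Of 8 measured osteoblast markers 7 lay above the lower quartile of every array (5.13 to 5.19 log2) and IBSP, bone sialoprotein, did not, with a mean of 4.93. Of the markers of other cell types, the leukocyte gene PTPRC (mean 4.19) lay below that quartile, while CD3E (5.67) and CD68 (10.61), the other measured leukocyte markers, lay above it. All 5 epithelial markers lay above it too, the keratin genes KRT8 and KRT18 at means of 11.16 and 11.91. Replicate arrays of a group correlated at 0.995 to 0.997 across all 33297 probe sets.

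All 41 members gave signal above the lower quartile of every array and varied little across the 12 arrays. Their means over all arrays ran between 8.03 log2 for CDC25C and 12.02 for CDC20. The steadiest was BUB1B, which encodes the checkpoint kinase BubR1, whose 12 values lay within 0.0985 log2 of each other, and the least steady was the kinetochore motor gene CENPE, with a range of 0.477. A member's range over the 12 arrays had a median of 0.205 log2. Over all 29094 tested probe sets the median range was 0.358, and over the 9496 with a mean between those of CDC25C and CDC20 it was 0.254. In RNA from whole cultures, fewer cells in G2 or mitosis and less RNA per cell cannot be told apart.

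**Figure D1:**
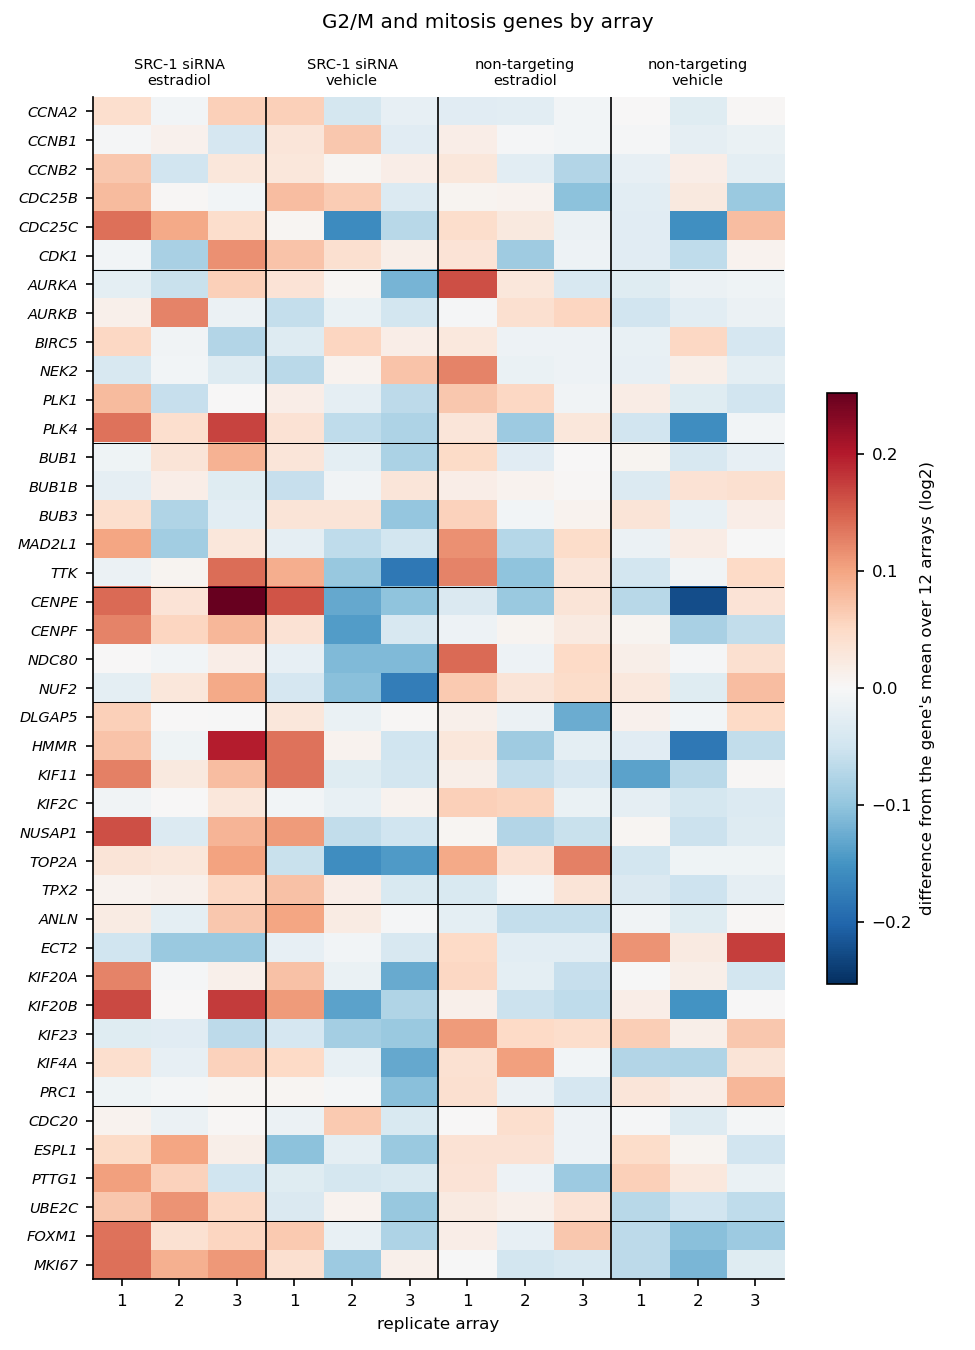
Each of the 41 genes on each array, as the difference from that gene's own mean over 12 arrays on the log2 scale. Red is above that mean and blue below. Columns are the 3 replicate arrays of each group. Horizontal lines separate cyclins and CDK1, kinases with BIRC5, checkpoint, kinetochore, spindle, cytokinesis, anaphase trigger and the last pair, FOXM1 and MKI67. The colour scale ends at the largest deviation among these values, and the widest spread is that of CENPE, with a range of 0.477.

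TOP2A and UBE2C read slightly higher with estradiol, and no other member was called. Neither was called with non-targeting siRNA alone, nor in a fit described below that takes account of control probe sets. The call of UBE2C was lost in most fits that left out 1 array. Called means an unadjusted p under 0.01 by limma that also stayed under 0.05 after Benjamini-Hochberg adjustment over all 29094 probe sets. With SRC-1 siRNA, 1 of the 41 members was called higher and 0 lower, where 6.88% of all probe sets were called, 4.49% as higher and 2.39% as lower. With non-targeting siRNA 0 members were called, where 2.73% of all probe sets were, 1.85% higher and 0.873% lower, and 3 members had an unadjusted p under 0.05, where 13.3% of all probe sets had. Averaged over both siRNAs, 2 members were called higher and 0 lower, where 9.96% of all probe sets were called, 6.11% as higher and 3.85% as lower. The averaged effect is built from the same arrays as the other 2 and does not stand apart from them.

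TOP2A encodes topoisomerase II alpha, which untangles sister chromatids and is most abundant in G2 and mitosis. It read 11.39, 11.39 and 11.46 log2 with SRC-1 siRNA and estradiol, against 11.30, 11.20 and 11.22 with SRC-1 siRNA and vehicle. With non-targeting siRNA it read 11.45, 11.40 and 11.49 under estradiol, against 11.31, 11.35 and 11.35 under vehicle. All estradiol arrays lay above all vehicle arrays, whichever the siRNA. The difference was 0.17 ± 0.04 log2 (SE) with SRC-1 siRNA, a 1.13-fold increase with a 95% interval from 0.07 to 0.27 and an adjusted p of 0.0429 by limma. It was 0.11 ± 0.04 with non-targeting siRNA (adjusted p = 0.311) and 0.14 ± 0.03 averaged over both siRNAs (1.10-fold, adjusted p = 0.0165). Among the 12 fits that left out 1 array, the call with SRC-1 siRNA held only without replicate 1 of the group with SRC-1 siRNA and vehicle and was lost without any of the other 11 (adjusted p from 0.0247 to 0.154), whereas the averaged call held in all 12 (0.0106 to 0.0453).

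UBE2C encodes the ubiquitin-conjugating enzyme that starts chains for the anaphase-promoting complex. Its values were 9.51, 9.55 and 9.49 log2 with SRC-1 siRNA and estradiol, against 9.40, 9.45 and 9.34 with SRC-1 siRNA and vehicle. They were 9.46, 9.45 and 9.47 with non-targeting siRNA and estradiol, against 9.37, 9.39 and 9.37 with non-targeting siRNA and vehicle. Again no vehicle array reached the estradiol arrays. The averaged difference was 0.10 ± 0.03 log2 (SE), a 1.07-fold increase with an interval from 0.04 to 0.16 and an adjusted p of 0.0465 by limma. That call held only without replicate 2 of the group with SRC-1 siRNA and vehicle and was lost without each of the other 11 arrays (0.0417 to 0.101). With either siRNA alone UBE2C was not called, at 0.12 ± 0.04 with SRC-1 siRNA (adjusted p = 0.106) and 0.08 with non-targeting siRNA (0.407). TOP2A and UBE2C were the only members whose 6 estradiol arrays all lay above their 6 vehicle arrays, 2 of 41, where 5.17% of all probe sets had groups apart in this way and 3.46% had the estradiol arrays on top.

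**Figure D2:**
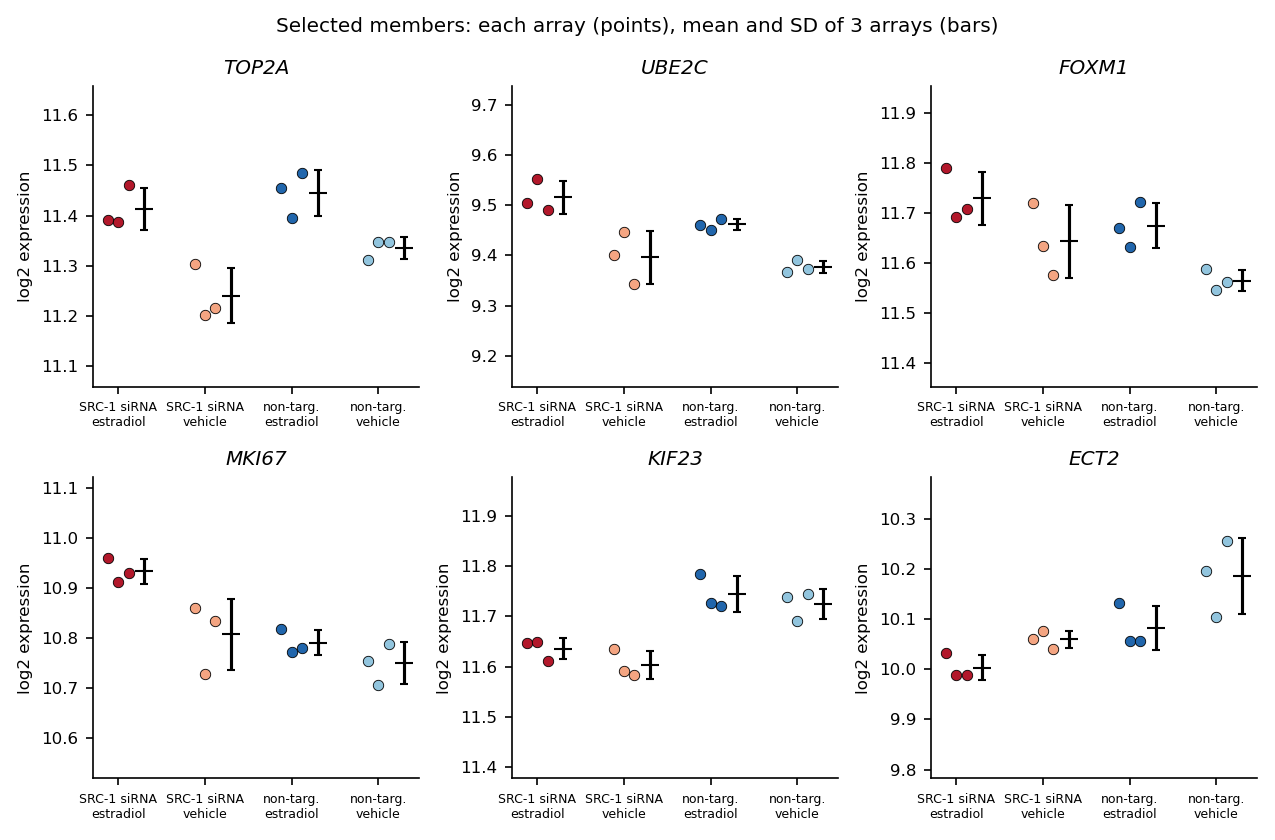
Log2 expression of 6 genes on each array (points), with the mean and SD of the 3 arrays of each group (bars); the axes differ between genes and do not start at 0. TOP2A and UBE2C are higher in all estradiol arrays than in all vehicle arrays, and KIF23 is lower in all SRC-1 siRNA arrays than in all non-targeting arrays.

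FOXM1, the forkhead factor that drives transcription in G2, and MKI67, which encodes the proliferation antigen Ki-67 on the surface of mitotic chromosomes, read higher with estradiol without passing the test. FOXM1 was at 11.79, 11.69 and 11.71 log2 with SRC-1 siRNA and estradiol and 11.72, 11.63 and 11.58 with SRC-1 siRNA and vehicle, so that these groups overlapped. With non-targeting siRNA its estradiol arrays read 11.67, 11.63 and 11.72 and lay above the vehicle arrays at 11.59, 11.55 and 11.56, a difference of 0.11 ± 0.05 (SE, adjusted p = 0.365). MKI67 was at 10.96, 10.91 and 10.93 with SRC-1 siRNA and estradiol and 10.86, 10.73 and 10.83 with SRC-1 siRNA and vehicle, which do not overlap. Its difference there was 0.13 ± 0.05 (adjusted p = 0.128). With non-targeting siRNA the difference of MKI67 was 0.04 log2, less than its standard error of 0.05.

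No gene of the cyclin and CDK1 role was called. With SRC-1 siRNA, the 5 genes CCNA2, CCNB1, CCNB2, CDK1 and CDC25B differed between estradiol and vehicle by 0.03, -0.03, 0.00, -0.03 and -0.01 log2, and with non-targeting siRNA the role as a whole ran between -0.01 and 0.05. CCNB1, cyclin B1, read 10.91, 10.93 and 10.87 with SRC-1 siRNA and estradiol, 10.95, 10.98 and 10.89 with SRC-1 siRNA and vehicle, 10.93, 10.91 and 10.91 with non-targeting siRNA and estradiol and 10.91, 10.89 and 10.90 with non-targeting siRNA and vehicle. CDC25C, which encodes a phosphatase that activates CDK1, had the largest difference of this role. It read 8.16, 8.12 and 8.07 with SRC-1 siRNA and estradiol and 8.03, 7.87 and 7.96 with SRC-1 siRNA and vehicle, a difference of 0.17 ± 0.06 log2 that was not called (adjusted p = 0.14).

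Kinases of mitosis and checkpoint genes were likewise not called. PLK4, which starts centriole duplication, differed by 0.15 ± 0.06 log2 (SE) between estradiol and vehicle with SRC-1 siRNA (adjusted p = 0.152) and by 0.06 with non-targeting siRNA. AURKB, the kinase of the chromosomal passenger complex, read 10.01, 10.13 and 9.99 with SRC-1 siRNA and estradiol, and 9.94, 9.99 and 9.96 with SRC-1 siRNA and vehicle, groups that met without overlapping. It differed by 0.08 log2 there and by 0.06 with non-targeting siRNA (adjusted p = 0.303 and 0.63). AURKA, NEK2 and PLK1, the other kinase genes, and BIRC5, listed with them though not a kinase gene, had averaged differences between -0.01 and 0.04 log2. The 5 checkpoint genes BUB1, BUB1B, BUB3, TTK and MAD2L1, whose products hold back anaphase, had averaged differences between 0.00 and 0.06. BUB1B, the steadiest, read 10.31, 10.35 and 10.30 with SRC-1 siRNA and estradiol and 10.27, 10.32 and 10.36 with SRC-1 siRNA and vehicle.

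At the kinetochore, all 4 members had positive differences between estradiol and vehicle with either siRNA, and none was called. Of all probe sets, 44.7% had a positive difference with SRC-1 siRNA and 45.5% with non-targeting siRNA. NUF2, a subunit of the NDC80 complex that grips microtubules, read 9.70, 9.76 and 9.82 log2 with SRC-1 siRNA and estradiol and 9.68, 9.62 and 9.55 with SRC-1 siRNA and vehicle, a difference of 0.14 ± 0.05 (SE, adjusted p = 0.119). CENPF, a kinetochore protein that accumulates in G2, differed by 0.14 ± 0.05 there (0.135), its estradiol arrays at 10.63, 10.56 and 10.59 lying above its vehicle arrays at 10.54, 10.36 and 10.46. CENPE showed a similar size, 0.17, but its vehicle arrays spread from 9.04 to 9.33. The probe set shared by CENPA and SLC35F6 was called higher in the averaged comparison (0.14 ± 0.03, adjusted p = 0.01), and which of the 2 transcripts it followed cannot be told from it.

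None of the remaining spindle and cytokinesis genes was called with estradiol. Besides TOP2A, the 6 spindle members KIF11 (the motor that pushes spindle poles apart), KIF2C, TPX2, NUSAP1, DLGAP5 and HMMR had averaged differences between -0.02 and 0.06 log2. Among the cytokinesis genes, KIF20B differed by 0.15 ± 0.07 (SE, adjusted p = 0.252) with SRC-1 siRNA and by 0.01 with non-targeting siRNA, and KIF4A, a chromosome-bound kinesin of the spindle midzone, by 0.06 and 0.08 (0.576 and 0.579). KIF20A, KIF23, PRC1 and ANLN had averaged differences between -0.03 and 0.03. ECT2, the exchange factor that activates RhoA at the cleavage furrow, was the only member lower than vehicle at an unadjusted p under 0.05. It read 10.03, 9.99 and 9.99 with SRC-1 siRNA and estradiol against 10.06, 10.08 and 10.04 with SRC-1 siRNA and vehicle, and 10.13, 10.06 and 10.06 with non-targeting siRNA and estradiol against 10.20, 10.11 and 10.26 with non-targeting siRNA and vehicle. Its differences were -0.06 with SRC-1 siRNA and -0.10 ± 0.05 with non-targeting siRNA (adjusted p = 0.511 and 0.366). ESPL1, which encodes separase, the protease that cuts cohesin, differed by 0.13 ± 0.04 with SRC-1 siRNA (0.108) and by 0.02 with non-targeting siRNA. CDC20 and PTTG1, the securin gene, had averaged differences of 0.01 log2 each.

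Counted by direction, 31 of the 41 members had a higher mean with estradiol under SRC-1 siRNA and 32 under non-targeting siRNA, where 44.7% and 45.5% of all probe sets did. Their median difference was 0.06 log2 with SRC-1 siRNA, against -0.02 over all tested probe sets, and 0.02 with non-targeting siRNA, against -0.01. Groups that did not overlap were found for 11 members with SRC-1 siRNA, 10 of them higher and 1 lower (25.8% of all probe sets, 12.9% higher and 12.8% lower), and for 5 with non-targeting siRNA, all higher (21% of all probe sets, 10.1% higher and 10.9% lower). The share of members at an unadjusted p under 0.05 was 8 of 41 with SRC-1 siRNA, where 23.2% of all probe sets were. The counts of calls, of groups apart in both directions together and of low unadjusted p lie close to or below the background of the array. The counts above 0 lie over it. So does, with SRC-1 siRNA, the count of groups apart on the higher side alone (10 of 41 members, against 12.9%). The count on the lower side lies below it (1 of 41, against 12.8%). The median with SRC-1 siRNA was 0.0224 without replicate 3 of its vehicle group and 0.0284 without replicate 1 of its estradiol group, against 0.0574 with all arrays. With non-targeting siRNA it was 0.0041 without replicate 1 of the estradiol group, against 0.0236 with all arrays. The direction counts also leaned on single arrays. Replicates 1, 2 and 3 with non-targeting siRNA had 34, 15 and 16 members above their own 12-array means under estradiol, and 15, 12 and 17 under vehicle. With SRC-1 siRNA they had 29, 22 and 30 under estradiol, and 26, 13 and 8 under vehicle.

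Signal of the 4203 probe sets taken as controls moved with estradiol as well. Relative to the 12-array mean, their array mean was 0.13 ± 0.04 log2 (SD, n = 3) with SRC-1 siRNA and estradiol, -0.09 ± 0.07 with SRC-1 siRNA and vehicle, 0.03 ± 0.04 with non-targeting siRNA and estradiol and -0.08 ± 0.04 with non-targeting siRNA and vehicle. The median of the 41 members on each array was 0.03 ± 0.02, -0.01 ± 0.04, 0.00 ± 0.03 and -0.02 ± 0.01 in the same groups. With the control mean as a covariate, the members' median estradiol difference was 0.0089 with SRC-1 siRNA, -0.0053 with non-targeting siRNA and -0.0006 averaged, and 0 members were called. TOP2A was then at 0.06 ± 0.07 log2 (SE, averaged, adjusted p = 0.83 by limma) and UBE2C at 0.16 ± 0.06 (0.412). The covariate itself separates the estradiol arrays from the vehicle arrays, so its fit has larger standard errors.

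**Figure D3:**
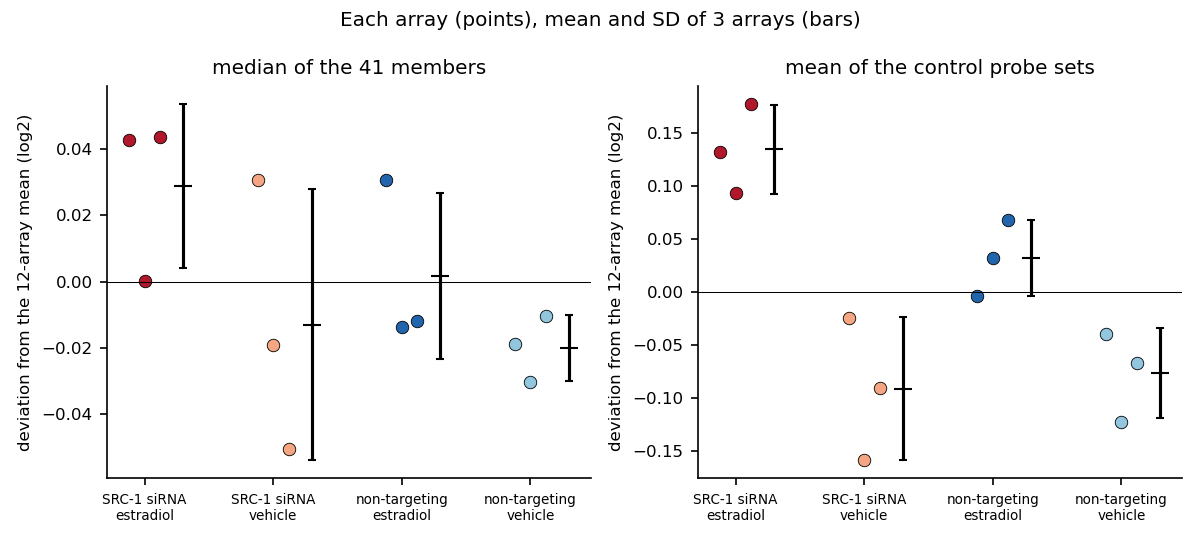
For each array (points) the median deviation of the 41 members from their 12-array means (left) and the mean deviation of the control probe sets (right), in log2, with the mean and SD of 3 arrays (bars). Member medians of estradiol and vehicle arrays overlap with either siRNA, whereas control means are 0.1348 and 0.0323 on average in the estradiol groups, against -0.0909 and -0.0762 in the vehicle groups.

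With SRC-1 siRNA, KIF23 read slightly lower and no other member was called. KIF23 was called only in the comparison averaged over both treatments, and that call was lost in every fit that left out 1 array. Under estradiol 0 of 41 members were called, where 1.8% of all probe sets were, 0.732% higher and 1.07% lower, and under vehicle 0, where 1.21% were, 0.265% higher and 0.945% lower. At an unadjusted p under 0.05 stood 2 members under estradiol (MKI67 and KIF23), where 15.8% of all probe sets did, and 3 under vehicle (KIF23, ECT2 and NUF2), where 12.7% did. Averaged over both treatments 1 member was called lower and 0 higher, where 5.1% of all probe sets were called, 2.05% as higher and 3.05% as lower.

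KIF23 is the kinesin of centralspindlin, which bundles microtubules at the spindle midzone and is needed to finish cytokinesis. It read 11.65, 11.65 and 11.61 log2 with SRC-1 siRNA and estradiol, against 11.79, 11.73 and 11.72 with non-targeting siRNA and estradiol. Under vehicle it read 11.63, 11.59 and 11.58 with SRC-1 siRNA, against 11.74, 11.69 and 11.75 with non-targeting siRNA. All 6 arrays with SRC-1 siRNA lay below all 6 with non-targeting siRNA, which no other member showed, where 3.55% of all probe sets had groups apart, 2.25% with the SRC-1 siRNA arrays below. The differences were -0.11 ± 0.04 log2 (SE) under estradiol (adjusted p = 0.207) and -0.12 ± 0.04 under vehicle (0.2). Averaged, KIF23 fell by 0.12 ± 0.03 log2, which is 1.08-fold, with a 95% interval from -0.18 to -0.05 and an adjusted p of 0.0384 by limma. That call was lost in every one of the 12 fits that left out 1 array (0.0505 to 0.0905), while the difference itself stayed between -0.12 and -0.11.

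Other members of the cytokinesis role went in both directions with SRC-1 siRNA. ECT2, with the values given above, had an averaged difference of -0.10 ± 0.03 log2 (SE, adjusted p = 0.111), whereas KIF20B, a kinesin, had one of 0.08 and ANLN, anillin, which links the contractile ring to the membrane, one of 0.06. PRC1, which crosslinks the microtubules that KIF23 works on, read 10.69, 10.70 and 10.71 with SRC-1 siRNA and estradiol and 10.74, 10.69 and 10.66 with non-targeting siRNA and estradiol. Under vehicle PRC1 read 10.71, 10.70 and 10.60 with SRC-1 siRNA, below 10.73, 10.72 and 10.79 with non-targeting siRNA. Its difference under vehicle was -0.08 log2 and was not called (adjusted p = 0.498).

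MKI67 read higher with SRC-1 siRNA. Under estradiol its arrays at 10.96, 10.91 and 10.93 log2 lay above those with non-targeting siRNA at 10.82, 10.77 and 10.78, a difference of 0.14 ± 0.05 (SE, adjusted p = 0.153). Under vehicle the values of 10.86, 10.73 and 10.83 with SRC-1 siRNA overlapped 10.75, 10.71 and 10.79 with non-targeting siRNA, and the averaged difference was 0.10 ± 0.03 (0.111). FOXM1 had differences of 0.05 under estradiol and 0.08 under vehicle.

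All 6 genes of the cyclin and CDK1 role had averaged differences above 0, between 0.01 and 0.06 log2. For 4 of 5 checkpoint genes the averaged difference was below 0, between -0.03 and -0.02 (BUB1 stood at 0.01). Of all probe sets, 49.1% had an averaged difference above 0. None was called. NDC80 and NUF2, which form 1 complex, had averaged differences of -0.08 and -0.07 log2, and CENPE and the spindle protein gene HMMR of 0.12 each. NUF2 under vehicle read 9.68, 9.62 and 9.55 with SRC-1 siRNA and 9.75, 9.70 and 9.81 with non-targeting siRNA, a difference of -0.13 ± 0.05 (SE, adjusted p = 0.289).

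In all, 25 of 41 members had a higher mean with SRC-1 siRNA under estradiol and 21 under vehicle, where 47.5% and 50.6% of all probe sets did. The members' median difference was 0.03 log2 under estradiol, against -0.01 over all probe sets, and 0.01 under vehicle, against 0.00. Groups apart were found for 10 members under estradiol, 8 higher and 2 lower (22.3% of all probe sets, 10.7% higher and 11.5% lower), and for 10 under vehicle, 2 higher and 8 lower (18.4%, 8.19% higher and 10.2% lower). The median under vehicle changed sign when 1 array was left out: it was -0.0248 without replicate 1 and -0.0023 without replicate 2 of the SRC-1 siRNA group, and -0.0064 without replicate 2 of the non-targeting group. Comparisons of estradiol with vehicle and of SRC-1 with non-targeting siRNA share arrays, so their values for a gene are not independent of each other.

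Whether the estradiol effect on a member differed between the siRNAs was tested directly, as the effect with SRC-1 siRNA minus that with non-targeting siRNA. In limma 0 of 41 members were called, where 0% of all probe sets were; at an unadjusted p under 0.05 stood 0 members and 7.22% of all probe sets. The smallest adjusted p among the members was 0.749, for ESPL1, whose estradiol effect was higher by 0.11 log2 with SRC-1 siRNA. The members' differences ran between -0.07 for NEK2 and 0.14 for KIF20B, with a median of 0.03, against 0.00 over all probe sets, and 27 of 41 lay above 0, where 49.1% of all probe sets did. For TOP2A the difference was 0.06 (adjusted p = 0.882), for UBE2C 0.03 (0.933) and for KIF23 0.01 (0.977). These p-values do not show that the effects were equal, but the intervals bound how far apart they were: over the 41 members the farthest bounds were -0.24 log2 (AURKA) and 0.39 (CENPE), a 1.31-fold difference.

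How large a change the arrays leave room for can be read from the 95% intervals, which are not adjusted for the number of genes. In all 7 comparisons the interval of each of the 41 members lay within 1.5-fold in either direction, where 94.4% of all probe sets did for estradiol with SRC-1 siRNA, 96.5% for estradiol with non-targeting siRNA, 96.8% and 97.6% for SRC-1 siRNA under estradiol and under vehicle, 91.1% for the difference, and 97.9% and 99.2% for averaged estradiol and averaged SRC-1 siRNA. Within 1.2-fold lay 35 members for estradiol with SRC-1 siRNA (52.4% of all probe sets), 41 for estradiol with non-targeting siRNA (60.1%), 38 for SRC-1 siRNA under estradiol (58.6%), 40 under vehicle (61.4%), and 33 for the difference of the estradiol effects (35.8%). For both averaged comparisons all 41 intervals lay within 1.2-fold, where 76% of all probe sets did for estradiol and 83% for SRC-1 siRNA. The median half-width of a member's interval was 0.11 log2 between 2 groups and 0.07 in the averaged comparisons. The highest upper bound over the 7 comparisons was 1.31-fold, for CENPE in the difference of the estradiol effects, and its bound for estradiol with SRC-1 siRNA was 1.29-fold.

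**Figure D4:**
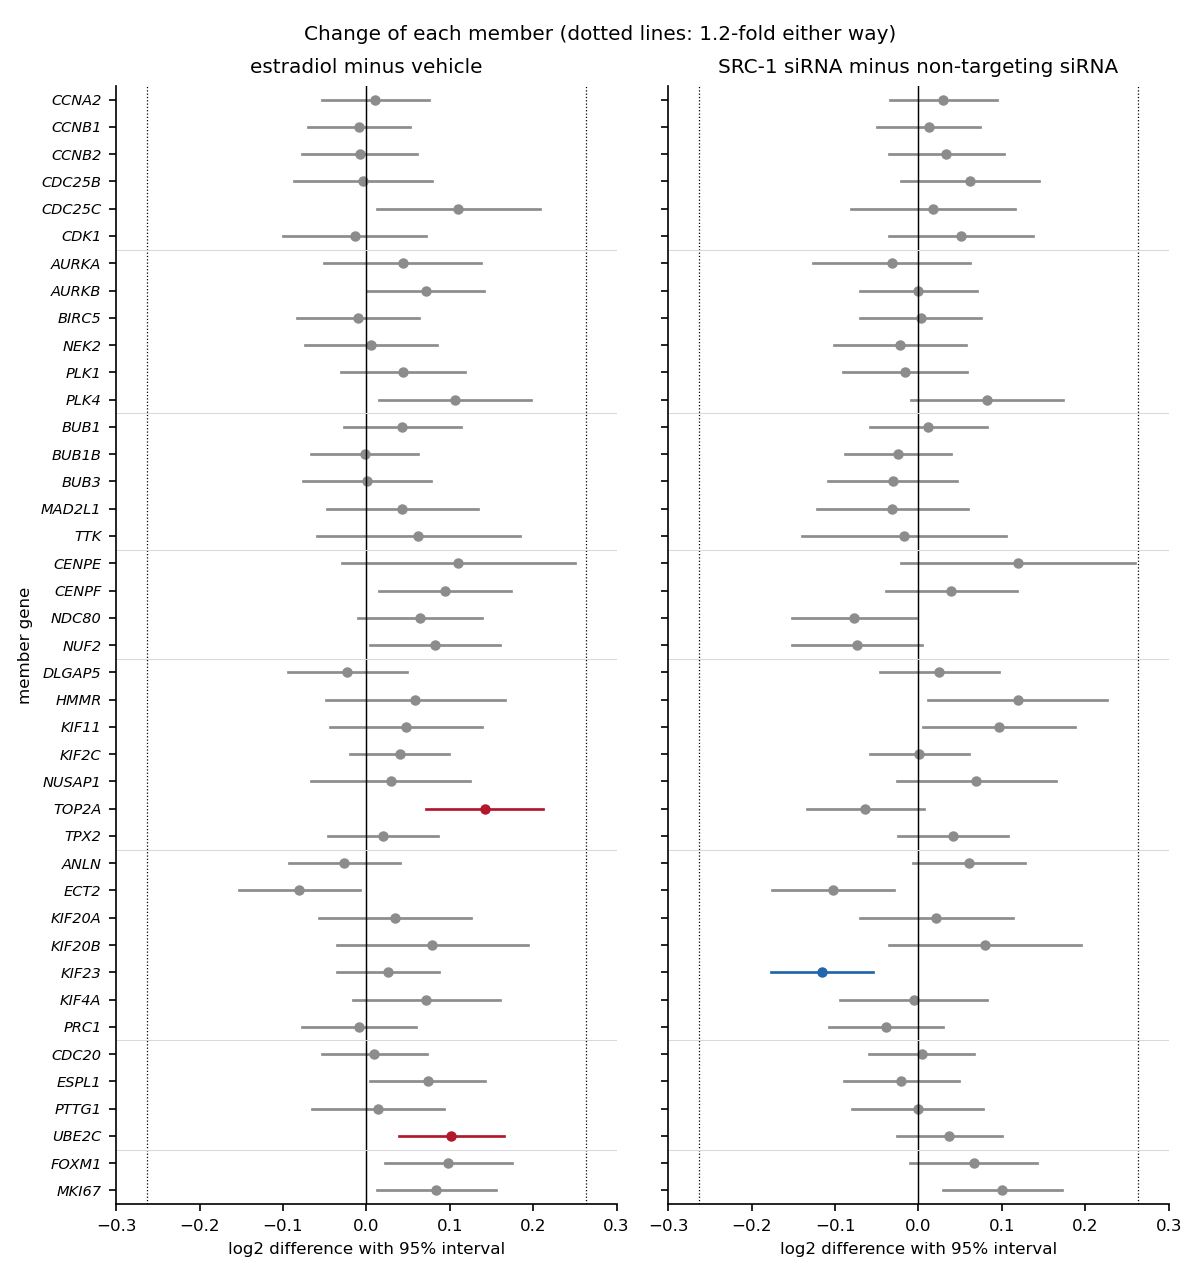
Averaged log2 difference of each of the 41 genes with its 95% interval, for estradiol minus vehicle (left) and SRC-1 siRNA minus non-targeting siRNA (right); red marks genes called higher (TOP2A, UBE2C), blue the gene called lower (KIF23), and dotted lines 1.2-fold either way. All 41 intervals lie inside the dotted lines in both panels.

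Neighbouring genes of the cell cycle that are not among the 42 were read through 8 lists with 160 measured genes. With SRC-1 siRNA, estradiol raised 6 and lowered 1 of them, where 4.49% and 2.39% of all probe sets were called in these directions, and with non-targeting siRNA it raised 3 and lowered 1, where 1.85% and 0.873% were. Averaged over both siRNAs 18 were called higher and 4 lower, where 6.11% and 3.85% were. For SRC-1 siRNA limma called 0 of the 160 under estradiol and 0 under vehicle, with 21 at an unadjusted p under 0.05 in each (1.8% and 1.21% of all probe sets called, 15.8% and 12.7% under 0.05). Averaged over both treatments 3 were called higher and 2 lower, where 2.05% and 3.05% of all probe sets were. The difference of the estradiol effects was called for 0 of the 160, with 4 at an unadjusted p under 0.05, where 7.22% of all probe sets were.

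Several mitotic genes of these lists were called with estradiol, CLASP2, CENPC, KNTC1 and CENPT with larger differences than any of the 41 members. CLASP2, which stabilizes microtubule ends at kinetochores and the cell cortex, rose by 0.46 ± 0.05 log2 (SE) with SRC-1 siRNA and by 0.33 ± 0.05 with non-targeting siRNA (adjusted p = 0.000189 and 0.00287 by limma). CENPC, the inner kinetochore protein that binds CENP-A nucleosomes, rose by 0.30 ± 0.07 and 0.31 ± 0.07 (0.0337 and 0.05, just under the threshold before rounding). KNTC1, a subunit of the complex that brings dynein to kinetochores, rose by 0.30 with SRC-1 siRNA, CENPT by 0.20 and MASTL, the kinase that restrains the phosphatase opposing CDK1, by 0.17. Of 32 measured kinetochore genes, 3 were called higher with SRC-1 siRNA and 1 with non-targeting siRNA, where 4.49% and 1.85% of all probe sets were, with medians of 0.07 and 0.02 log2. Of 25 spindle and cytokinesis genes CLASP2 alone was called with either siRNA, and of 12 entry switch genes MASTL alone, with SRC-1 siRNA. Averaged over both siRNAs, 6 of the 32 kinetochore genes were called higher and 0 lower, where 6.11% and 3.85% of all probe sets were. In that comparison 3 of the 25 spindle and cytokinesis genes were called higher and 0 lower, and of the 12 entry switch genes 2 higher and 1 lower. WEE1, the kinase that holds CDK1 inactive, fell by 0.16 ± 0.03 log2 in the averaged estradiol comparison and was higher by 0.13 ± 0.03 with SRC-1 siRNA averaged over both treatments (adjusted p = 0.00954 and 0.0464).

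Limma called 0 of 17 genes of the anaphase-promoting complex, 0 of 20 cohesin and condensin genes and 0 of 12 genes of MuvB and DREAM in any of the 3 estradiol comparisons. At an unadjusted p under 0.05 in the averaged one stood 1, 4 and 2 of them. In that comparison 9.96% of all probe sets were called and 25.8% stood under 0.05. Averaged over both treatments, SRC-1 siRNA lowered UBE2S, which elongates the chains that UBE2C starts, by 0.16 ± 0.04 log2 (SE, adjusted p = 0.0279), and PSRC1, a spindle protein, by 0.12. MIS18A, which prepares centromeres for new CENP-A, was higher by 0.15 and NCAPH, a condensin subunit, by 0.10. Among 35 measured G1/S and replication genes, E2F7, a repressor of E2F targets, fell with estradiol by 0.37 ± 0.05 log2 with SRC-1 siRNA and by 0.42 ± 0.05 with non-targeting siRNA (adjusted p = 0.00118 and 0.00074), and no other was called with either siRNA alone. CDKN1A, the CDK inhibitor p21, rose by 0.27 ± 0.06 and 0.37 ± 0.06 (0.0196 and 0.00497). It was the only one of 7 measured CDK inhibitors called with either siRNA alone. In the averaged estradiol comparison 2 of the 7 were called higher (CDKN1A and CDKN1B) and 2 lower, CDKN1C among them. Averaged over both siRNAs, 5 G1/S genes were called higher and 1 lower, where 6.11% and 3.85% of all probe sets were, with a median of 0.04 log2 over the 35, which is the size of the median over the 41 G2 and mitosis genes.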

How the data were processed

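Affymetrix Human Gene 1.0 ST arrays were run on RNA of 12 samples. Deposited were log2 values for each probe set, processed by the authors from the scanner files with the affy package and tested by them with limma, per the submitters' processing notes and the design text; versions, background correction, normalization and genome build are not given in the sources used here. No further normalization was applied. Among the 33297 probe sets, the 4203 numbered below 7896740 were taken as controls, an inference from the numbering alone, and the other 29094 were tested. Gene symbols come from GEO's platform annotation (19460 probe sets with 1 symbol, 1754 with several, 7880 with none), and promoters from RefSeq (GRCh38.p14, first listed start of each gene).

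The model, fitted in limma 3.58.1 (R 4.3.3), held 1 mean for each of the 4 groups and used all arrays, with moderated variances (3.15 prior and 8 residual degrees of freedom) and two-sided tests in 7 comparisons: estradiol under either siRNA, SRC-1 siRNA under either treatment, the estradiol effect with SRC-1 siRNA minus that with non-targeting siRNA, and the averaged effects of estradiol and of SRC-1 siRNA. The thresholds are those of the design text. The members, the gene lists and the roles were chosen with earlier results of these data known, so a pattern among them is not independent support. Named are the members called and, where fewer than 6 were called, those with the smallest p up to 6, with up to 3 called genes for each list and comparison; further members are given to describe a role, chosen with their values in view. To check the code, the fit was run on simulated data with independent noise and known changes. Those data held no shifts shared by a whole array, and their changes were larger than those of the called members. They therefore say nothing about the reliability of these calls.

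Same-numbered replicates were checked for pairing. The deviations of 18 pairs correlated at -0.03 to 0.21, with 6 over 0.1, and 9 of 12 arrays correlated best with arrays of their own number. These values do not decide whether the replicates were paired. The main fit did not use the numbers as pairs, and a fit with them as a block is given at the end. Alternatives were a replicate block, only the arrays compared, leaving out the dimmest 40% of probe sets, testing the control probe sets too, renewed quantile normalization, median centring, trended and robust variances, array weights, the control mean as a covariate, other thresholds, the mean of all probe sets of a gene, and leaving out each array. The number of arrays limits the precision; signal over background was not measured.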

Additional observations from a re-analysis of the deposited data

Results flagged for a closer look

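CCNB1 had an estradiol effect of -0.03 log2 with SRC-1 siRNA and 0.02 with non-targeting siRNA, and stands here because all 3 estradiol arrays lay below their vehicle mean with SRC-1 siRNA and above it with non-targeting siRNA. The difference of these effects was -0.0517 log2 (95% interval -0.17 to 0.07, adjusted p = 0.891 by limma). PRC1 had effects of 0.03 and -0.05, again with all 3 estradiol arrays on opposite sides of their vehicle means, a difference of 0.0829 (-0.05 to 0.22, adjusted p = 0.823). For KIF2C, the kinesin that shortens microtubules, the SRC-1 siRNA effect was -0.03 under estradiol and 0.03 under vehicle, with all 3 SRC-1 siRNA arrays on opposite sides of the non-targeting mean, a difference of -0.0554 (-0.17 to 0.06, adjusted p = 0.878). None of the 3 was called.

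Control probe sets, which are no part of the gene comparisons, had a higher array mean with estradiol than with vehicle, by 0.2257 log2 with SRC-1 siRNA and by 0.1086 with non-targeting siRNA. When they were tested together with all other probe sets, 384 of the 4203 were called higher and 7 lower by estradiol with SRC-1 siRNA, and 45 higher and 3 lower with non-targeting siRNA. For SRC-1 siRNA the counts were 10 and 1 under estradiol and 5 and 5 under vehicle.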

How the results depend on the processing

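Over 42 effects of single members, 990 recomputed values under the alternatives gave 922 with the same direction and side of the threshold, 45 that lost the call, 15 that gained one and 8 that changed sign. With the control mean as a covariate, the members' median difference was -0.0053 log2 for estradiol with non-targeting siRNA, 0.0089 with SRC-1 siRNA, 0.0007 for SRC-1 siRNA under estradiol, -0.0005 for the difference of the estradiol effects and -0.0006 for averaged estradiol, and the counts called were 0 higher for estradiol with SRC-1 siRNA, 0 higher averaged, and 0 lower for averaged SRC-1 siRNA. The sign changed only with this covariate: estradiol with SRC-1 siRNA for MKI67 (-0.0044) and CENPF (-0.0801), averaged estradiol for CENPF (-0.0663), MKI67 (-0.0131) and PLK4 (-0.0488), SRC-1 siRNA under estradiol for KIF20B (-0.0052) and CENPE (-0.0384), and the difference of the estradiol effects for KIF20B (-0.0372). The covariate separates the treatments, which raises the standard errors; the cause of these changes was not tested. With trended and robust variances, counts were 2 higher for estradiol with SRC-1 siRNA, 5 higher averaged, 1 lower for SRC-1 siRNA under vehicle, 1 higher and 1 lower under estradiol, and 1 higher and 2 lower averaged. Averaged SRC-1 siRNA also gave 1 higher and 2 lower without the dimmest probe sets, where fewer are tested, and 0 lower with median centring. With only the arrays compared, estradiol with SRC-1 siRNA gave 0 higher. At an adjusted p under 0.01 the counts were 0 for estradiol with SRC-1 siRNA, 0 for averaged estradiol and 0 lower for averaged SRC-1 siRNA. UBE2C lost its averaged call with renewed quantile normalization (adjusted p = 0.117). Leaving out 1 array gave 0 to 2 called higher for estradiol with SRC-1 siRNA, 1 to 3 averaged and 0 to 0 lower for averaged SRC-1 siRNA, with medians of 0.0224 to 0.0725 for estradiol with SRC-1 siRNA and -0.0248 to 0.0218 for SRC-1 siRNA under vehicle.

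With a replicate block, the replicate number as a term of the fit, the counts of called members did not change in any comparison: TOP2A was at 0.1734 log2 (adjusted p = 0.0479) for estradiol with SRC-1 siRNA and 0.1417 averaged (0.0218), UBE2C at 0.1019 (0.049) and KIF23 at -0.1156 (0.0441). Of the 12 arrays, 9 correlated best with arrays of their own number, a hint from the data and not from the design.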
